A study of Mus musculus with 9 samples.

Results

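A set of 10 genes of the interleukin-1 (IL-1) family, Il33, Il1a, Il1b, Il18, Il1rn, Il1r1, Il1r2, Il1rap, Il1rl1 and Il18r1, were followed in mouse keratinocytes and in mouse regulatory T cells (Tregs). They were taken by symbol, and all 10 were found among the 36442 genes of the epidermal table and the 24016 gene symbols of the Treg table. Where a gene had several transcripts in the Treg table, the transcript with the highest mean stood for it. RNA sequencing covered 9 libraries of cells purified by sorting. Keratinocytes came from adult skin epidermis, with 2 WT libraries and 2 libraries of the group labelled Mi2. Column names mark that group as a knock-out. Chd4 encodes Mi-2β, an ATPase that remodels chromatin. Tregs came from skin-draining lymph nodes by their labels, although the column names call them skin Tregs. They comprised 2 control libraries (Ctl, which the column names call WT), 2 libraries of Mi2 mice whose Tregs carry wild-type TSLPR, and 1 library of TSLPR-negative Tregs of Mi2 mice, marked as a double knock-out in its column name. TSLPR is the receptor chain for the epithelial cytokine TSLP and is encoded by Crlf2. The labels give neither the Cre driver nor the age of the mice beyond adult, nor how TSLPR-negative cells were made, nor whether replicates came from different mice. The p-values therefore measure the spread between these libraries, which may be technical.

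IL-1 family cytokines are alarm signals of barrier tissues. IL-1α, IL-1β, IL-18, IL-33 and the IL-36 cytokines each bind a specific receptor chain, which then recruits a partner chain and signals through MyD88 and IRAK kinases to NF-κB. The family carries its own brakes: IL-1Ra (Il1rn) and IL-36Ra (Il1f5) occupy receptors without signalling, the decoy receptor IL-1R2 (Il1r2) binds IL-1 but lacks a signalling domain, and IL-18BP captures IL-18. ST2, the IL-33 receptor encoded by Il1rl1, marks a tissue-type subset of Tregs and also exists as a soluble form that binds IL-33 without signalling.

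The promoters of the 4 genes that the results turn on are shown here, because Il33, Il1rn and Il1r2 were lower together in Mi2 keratinocytes and Il1r2 and Il1rl1 were higher together in Tregs of Mi2 mice. Each is the 250 bases before a transcript start, taken from RefSeq on GRCm38.p6 and written 5′ to 3′ on the gene's strand, which is the plus strand for all of them. Capitals mark matches, on either strand, to the AP-1 motif TGANTCA, the STAT motif TTCNNNGAA or the GATA motif GATAAG. Il33 is at chr19:29924863-29925112, Il1rn at chr2:24336610-24336859 and Il1r2 at chr1:40085843-40086092. Il1rl1 has a distal start at chr1:40429320-40429569 and a proximal start at chr1:40439379-40439628.
Il33: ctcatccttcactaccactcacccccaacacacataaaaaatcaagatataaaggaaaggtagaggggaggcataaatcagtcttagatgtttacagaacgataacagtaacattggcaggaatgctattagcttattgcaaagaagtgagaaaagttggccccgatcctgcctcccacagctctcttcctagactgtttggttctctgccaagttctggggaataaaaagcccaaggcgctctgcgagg
Il1rn: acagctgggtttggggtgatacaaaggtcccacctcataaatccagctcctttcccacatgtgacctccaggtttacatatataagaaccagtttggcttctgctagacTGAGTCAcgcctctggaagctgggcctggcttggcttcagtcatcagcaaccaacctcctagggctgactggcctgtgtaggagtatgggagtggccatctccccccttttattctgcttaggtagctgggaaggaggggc
Il1r2: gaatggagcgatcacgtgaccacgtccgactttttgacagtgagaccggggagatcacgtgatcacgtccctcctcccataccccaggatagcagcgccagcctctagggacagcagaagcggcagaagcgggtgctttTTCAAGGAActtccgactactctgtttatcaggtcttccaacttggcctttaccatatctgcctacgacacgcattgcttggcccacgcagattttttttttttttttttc
Il1rl1 distal: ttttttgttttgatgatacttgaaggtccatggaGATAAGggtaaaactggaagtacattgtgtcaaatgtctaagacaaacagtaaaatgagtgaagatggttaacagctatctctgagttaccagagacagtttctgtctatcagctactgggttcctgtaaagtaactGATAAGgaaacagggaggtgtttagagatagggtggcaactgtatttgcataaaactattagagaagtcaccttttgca
Il1rl1 proximal: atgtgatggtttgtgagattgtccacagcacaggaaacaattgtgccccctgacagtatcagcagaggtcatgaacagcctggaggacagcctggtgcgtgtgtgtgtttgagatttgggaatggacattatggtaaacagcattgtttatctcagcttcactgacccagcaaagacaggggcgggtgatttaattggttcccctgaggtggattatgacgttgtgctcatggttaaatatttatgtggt
The Il1rn window shown held 1 match to the AP-1 motif, the Il1r2 window 1 to the STAT motif and the distal Il1rl1 window 2 to the GATA motif. The Il33 window shown and the proximal Il1rl1 window held none of them. Il1rn and Il33 have further starts in the RefSeq table, and the windows of those held no match to the motifs. Of 32851 promoter windows of the same length, 6.75% held the AP-1 motif, 7.02% the STAT motif and 6.55% the GATA motif. All 10 genes had promoters in that table, 17 windows in all, and among the others 1 window of Il18r1 held 2 STAT matches and the window of Il1a held 1 AP-1 match. A match is a description of letters and not a binding site.

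Values are normalized reads, that is, whole reads multiplied by 1 factor for each library. Recovered reads summed over genes to between 5682391 and 8913804 in the epidermal libraries. In the Treg libraries they summed over transcripts to between 21849381 and 32238992. Reads in exons shared by transcripts count more than once there, so the Treg sums overstate depth and cannot be set against the epidermal ones. Keratinocyte markers summed to between 229451 and 267858 normalized reads in each epidermal library, and Treg markers to between 84839 and 128913 in each Treg library, so both labels were matched by their markers. Chd4 was 1607 and 1942 in the WT pair against 734 and 1207 in the Mi2 pair (log2 change -0.91, SE 0.272, limma adjusted p = 0.0456). Crlf2 was 395 and 742 in the Ctl pair, 816 and 715 in the TSLPR WT pair and 51.5 in the TSLPR-negative library, where it was lower than in TSLPR WT Mi2 (log2 change -3.86, SE 0.367, limma adjusted p = 0.00014). Mitochondrial genes took 29.7% of reads in Mi2 replicate 1 and between 12.9% and 15.5% in the other epidermal libraries. Among all tested epidermal genes the calls were 2185 higher and 1900 lower. Scaling without mitochondrial genes moved the median change of all genes to -0.27 on the log2 scale and that split to 1531 and 2744. Differences are on the scale of log2(normalized reads + 1), which understates changes of low genes, and a gene was called at a limma adjusted p under 0.05. In bulk RNA, fewer cells of a type and less RNA per cell cannot be told apart.

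In keratinocytes the first question is which ligands of the family differ between Mi2 and WT epidermis. Il33, the nuclear alarmin that ST2 recognises, was the most abundant agonist of the 10 genes in WT, with a mean of 260 normalized reads per kb of exon. It was 789 and 712 normalized reads in the WT pair against 47.8 and 58.6 in the Mi2 pair (750.5 ± 54.3 against 53.2 ± 7.65, SD, n = 2 each). The log2 change was -3.80 (SE 0.224, limma adjusted p = 0.00042), and it ranked 18 by p among the 14461 genes tested. Both Mi2 libraries lay far below both WT libraries. Of the 6 members with a mean of at least 10 in epidermis, 3 were called lower (Il33, Il1r2 and Il1rn) and 0 higher. Among the 6, Il18r1 passed the filter only through the WT pair (mean 14.8, against 8.08 in Mi2) and could be called only as a fall. The background in the same comparison was 28.2% of genes called in either direction, 15.1% called higher and 13.1% called lower.

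The other agonists among the 10 were barely detected in these keratinocytes, each below the filter. Il1a, a preformed keratinocyte alarm cytokine, had 14 reads over the 4 libraries, with 0 and 2.90 normalized reads in the WT pair against 10.6 and 2.72 in the Mi2 pair. Il1b had 18 reads in all, with 0.992 and 5.81 in the WT pair against 6.63 and 5.45 in the Mi2 pair. Il18 had 13 reads in all, with 5.95 and 0.726 in the WT pair against 3.98 and 4.09 in the Mi2 pair. With no filter on low values, limma called 3 of the 10 members, Il33, Il1r2 and Il1rn, and did not call these. Among the IL-36 agonists, which act on keratinocytes themselves, Il1f9 (IL-36γ) was 14.9 and 24.0 in the WT pair against 67.7 and 91.3 in the Mi2 pair (log2 change 2.0, SE 0.389, limma adjusted p = 0.0120). It rose while Il33 fell. In normalized reads per kb, Il1f9 had a mean of 11.8 against 260 for Il33 in WT, and 48.2 against 18.4 for Il33 in Mi2. Its call ended without WT replicate 1 (adjusted p = 0.0908). Il1f6 and Il1f10 had 0 reads and Il1f8 had 2.

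The antagonists and the decoy receptor fell in Mi2 keratinocytes. Il1r2 was 1086 and 751 normalized reads in the WT pair against 53.1 and 121 in the Mi2 pair (918 ± 237 against 87.2 ± 48.2, SD, n = 2 each), a log2 change of -3.47 (SE 0.395, limma adjusted p = 0.00226). The lowest WT library was still several times the highest Mi2 library. Il1rn, the soluble and intracellular IL-1 receptor antagonist, was 603 and 713 in the WT pair against 277 and 302 in the Mi2 pair (658 ± 77.4 against 289.9 ± 17.8, SD, n = 2 each), a log2 change of -1.18 (SE 0.198, limma adjusted p = 0.00741). That call ended when either WT library was left out, with adjusted p of 0.0517 and 0.0838 and log2 changes of -1.30 and -1.06. Il1f5, the IL-36 receptor antagonist, was 127 and 136 in the WT pair against 45.1 and 55.9 in the Mi2 pair (log2 change -1.37, SE 0.274, limma adjusted p = 0.0131), and its call also ended without either WT library (adjusted p = 0.109 and 0.120). Il18bp did not pass the test, at 4.96 and 11.6 in the WT pair against 11.9 and 23.2 in the Mi2 pair (log2 change 1.03, interval -0.47 to 2.52, limma adjusted p = 0.255). It passed the filter only through the Mi2 pair and could be called only as a rise.

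The signalling receptor chains of keratinocytes did not pass the test. Il1r1, the signalling IL-1 receptor, was 321 and 484 normalized reads in the WT pair against 440 and 699 in the Mi2 pair, so the groups overlapped (log2 change 0.49, 95% interval -0.21 to 1.20, limma adjusted p = 0.249). Il1rap, the partner chain shared by the IL-1, IL-33 and IL-36 receptors, was 465 and 440 in the WT pair against 220 and 433 in the Mi2 pair. Its log2 change was -0.55 (interval -1.30 to 0.20, limma adjusted p = 0.231). Mi2 replicate 1 decided this value: the change was -0.06 without that library and -1.04 without Mi2 replicate 2, when it was called (adjusted p = 0.0142). Il1rl2, the IL-36 receptor, was 416 and 449 in the WT pair against 543 and 534 in the Mi2 pair (log2 change 0.32, interval -0.12 to 0.75, limma adjusted p = 0.234). Il18r1 was low, at 12.9 and 16.7 in the WT pair against 6.63 and 9.54 in the Mi2 pair (log2 change -0.81, interval -2.09 to 0.47, limma adjusted p = 0.295). It passed the filter only through the WT pair and could be called only as a fall. Il1rl1, the receptor for IL-33, had 1 read over all 4 epidermal libraries, and Il18rap also had 1.

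In WT keratinocytes the decoy stood above the signalling receptor per kb, with means of 481 for Il1r2 and 63.2 for Il1r1. In Mi2 keratinocytes this order was turned round, with 45.7 for Il1r2 and 89.5 for Il1r1. These levels used the union of annotated exons as gene length, which need not match the lengths that the authors used.

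**Figure D1:**
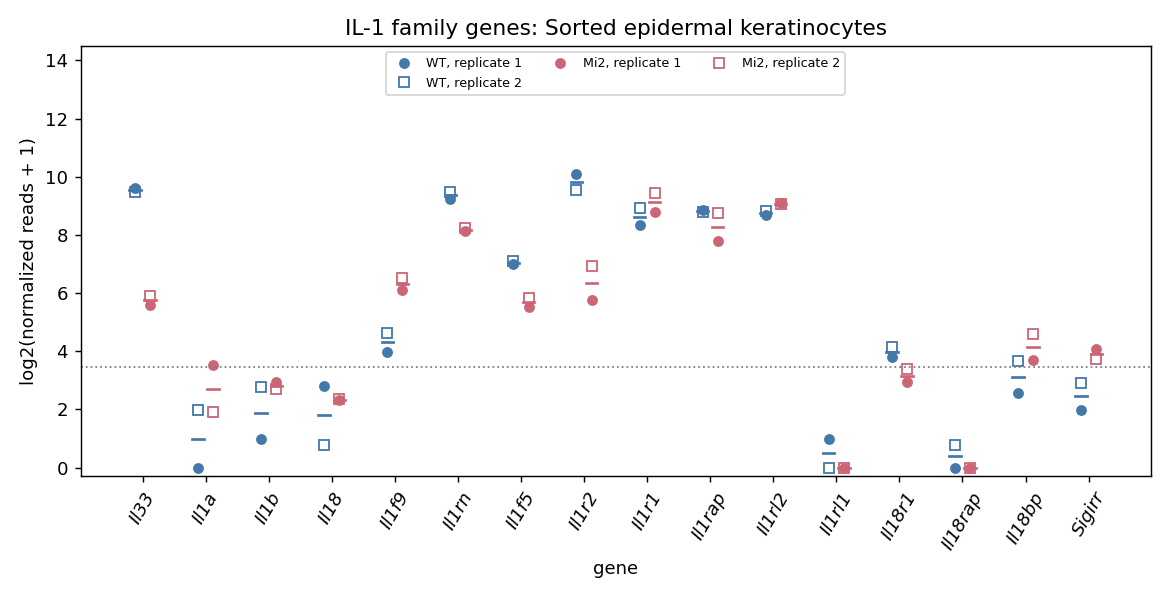
Normalized reads of IL-1 family genes in each epidermal library, as log2(normalized reads + 1), with ligands at the left, then antagonists, then receptors and other regulators. Filled circles are replicate 1, open squares replicate 2, short bars group means, and the dotted line the mean filter of 10; Il33, Il1rn, Il1f5 and Il1r2 are lower and Il1f9 higher in both Mi2 libraries.

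Keratinocyte markers and markers of other cells were set beside these changes. Krt14, a basal keratin, was 35020 and 32292 in the WT pair against 79944 and 50895 in the Mi2 pair, while Krt1, a keratin of differentiating cells, was 21522 and 18749 in the WT pair against 4503 and 8896 in the Mi2 pair. Krt15, also a basal keratin, was 49093 and 40508 in the WT pair against 4202 and 8781 in the Mi2 pair, so the basal keratins did not move together. Of the 6 keratinocyte markers, 0 were called higher and 2 lower, where 28.2% of all genes were called in either direction. Of all genes, 15.1% were called higher and 13.1% lower. The part that these keratin values have in the falls of Il33, Il1r2 and Il1rn was not tested. The mast cell and endothelial lists had sums of 0 to 5.45 and 0 to 9.29 normalized reads, with Cpa3, Mcpt4, Fcer1a, Cdh5 and Kdr at 0 in every library. Neutrophil, monocyte and macrophage markers summed to 85.3 and 385 in the WT pair against 137 and 142 in the Mi2 pair. WT replicate 2 stood out there through Lyz2, at 182 against at most 2.72 elsewhere, while Ly6g was at 0 in all 4 libraries. Without WT replicate 2 the log2 changes were -3.87 for Il33 and -3.74 for Il1r2, and both stayed called (limma adjusted p = 0.000976 and 0.00274). Langerhans and dendritic cell markers summed to 323 and 304 in the WT pair against 496 and 905 in the Mi2 pair. Cd74 led that sum, at 169 and 181 in the WT pair against 337 and 666 in the Mi2 pair. Cd207 of that list overlapped between groups, at 14.9 and 1.45 in the WT pair against 3.98 and 15.0 in the Mi2 pair. Of the 3 markers tested, 1 was called higher. Fibroblast markers summed to 144 and 23.2 in the WT pair against 62.4 and 8.17 in the Mi2 pair.

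Downstream of the receptors, 22 genes of IL-1 receptor signalling were measured in epidermis. In Mi2, 2 rose, 2 fell and 18 did not pass the test, so the share called was below the 28.2% of all genes. The median log2 change was 0.07 against -0.03 for all genes tested. Myd88, the shared adaptor, rose from 129 and 174 normalized reads to 300 and 237 in Mi2 (log2 change 0.83, limma adjusted p = 0.0474), and Nfkbiz, an NF-κB cofactor, rose by 0.74 on the log2 scale (adjusted p = 0.0491). Irak2, an IL-1 receptor-associated kinase, fell from 107 and 61.0 to 35.8 and 21.8 (log2 change -1.50, limma adjusted p = 0.0363). Tollip, an inhibitor of the pathway, fell from 998 and 966 to 649 and 620 (log2 change -0.63, adjusted p = 0.0394).

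Of 11 measured genes of inflammasomes and cytokine processing, 5 rose and 1 fell, where 15.1% of all genes were called higher and 13.1% lower. Aim2 and Gsdmd passed the filter only through the Mi2 pair and could be called only as rises. Capn2, a calpain protease of the kind that matures IL-1α, rose from 106 and 107 normalized reads to 1706 and 932 in Mi2 (log2 change 3.55, SE 0.298, limma adjusted p = 0.00089). Its small subunit Capns1 rose by 1.89 on the log2 scale. Aim2, the sensor of cytosolic DNA, rose from 5.95 and 3.63 to 134 and 136 (log2 change 4.58, SE 0.406, limma adjusted p = 0.00103). Gsdmd, the pore protein through which IL-1β leaves cells, rose and Pycard, the inflammasome adaptor, fell, and both were chosen after their values were seen (log2 changes 2.49 and -1.06). Among 16 genes that IL-1 is known to induce in keratinocytes, 5 passed the filter, of which limma called 3 higher and 0 lower and edgeR called 2. Lcn2 and Il23a passed it only through the Mi2 pair, so this count is no measure of the list's direction. Icam1, an adhesion molecule, went from 348 and 434 to 909 and 1029, and Ptgs2, the inducible prostaglandin synthase, from 28.8 and 96.6 to 161 and 202. Lcn2, an iron-binding antimicrobial protein, was at 0 and 1.45 in the WT pair against 91.5 and 196 in the Mi2 pair.

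By profile over the 4 epidermal libraries, the genes most like Il33 among 10867 with a mean of at least 50 were Man1c1, Mt4 and Slc43a1. Their root mean square distances from the centred log2 profile of Il33 were 0.129, 0.154 and 0.189. Man1c1, for instance, was at 760 and 609 in the WT pair against 39.8 and 43.6 in the Mi2 pair.

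In Tregs the question is which receptors of the family differ in Tregs of Mi2 mice, and whether that differs when the cells lack TSLPR. The 2 comparisons with Ctl share the Ctl libraries. Of the 10 genes, 7 passed the filter in Tregs. Against Ctl, TSLPR WT Tregs of Mi2 mice had 3 called higher (Il1r2, Il1rl1 and Il1r1) and 0 lower, where 27.7% of all 12206 features were called in either direction and 14.7% called higher. Against TSLPR WT, TSLPR-negative Tregs had 1 of the 7 called, Il1r2, which was lower, against a background of 0.942% called in either direction and 0.205% called lower. Against Ctl, TSLPR-negative Tregs had 0 of the 7 called by limma and 0 by edgeR, with 1 at an unadjusted p under 0.05, and the background was 3.15% in either direction, 2.63% higher and 0.516% lower.

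Il1r2, the decoy receptor, had the smallest adjusted p of the 10 genes in Tregs. It was 635 and 589 normalized reads in the Ctl pair, 2595 and 1827 in the TSLPR WT pair and 583 in the TSLPR-negative library. Both TSLPR WT libraries lay above the other 3, and the TSLPR-negative library lay beside the Ctl pair. The log2 change was 1.83 in TSLPR WT Mi2 against Ctl (SE 0.231, limma adjusted p = 5.4e-05) and -1.90 in TSLPR-negative against TSLPR WT (SE 0.283, limma adjusted p = 0.00722). Between TSLPR-negative and Ctl it was -0.07 (95% interval -0.67 to 0.54, limma adjusted p = 0.965). In the comparison of TSLPR-negative with TSLPR WT cells, Il1r2 ranked 14 by p among all features. That call rests on 1 TSLPR-negative library, which was assumed to vary like the others, and it ended without the intensity trend (adjusted p = 0.199) and with no filter on low values (0.452).

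Il1rl1, the ST2 gene, showed another pattern. It was 1330 and 751 normalized reads in the Ctl pair, 3420 and 1636 in the TSLPR WT pair and 2577 in the TSLPR-negative library. The groups did not overlap with Ctl, but the TSLPR WT pair spanned the TSLPR-negative value. The log2 change was 1.24 in TSLPR WT Mi2 against Ctl (SE 0.320, limma adjusted p = 0.00987). It was 1.37 in TSLPR-negative against Ctl (interval 0.53 to 2.20, limma adjusted p = 0.0814) and 0.12 in TSLPR-negative against TSLPR WT (interval -0.71 to 0.96, limma adjusted p = 0.952). The first of these calls ended without Ctl replicate 2 (adjusted p = 0.0746, log2 change 0.83), without TSLPR WT replicate 1 (0.0822, 0.71) and without the intensity trend (0.0959). The change in TSLPR-negative against Ctl became a call without Ctl replicate 1, which leaves 1 library against 1, and without either TSLPR WT library. Neither TSLPR WT library enters that change, which stays at 1.37. Leaving either out alters the spread used and not the size, so those calls are no added evidence for the change.

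The Treg table also held shorter Il1rl1 transcripts, which end before the membrane-spanning exons and stand for soluble ST2. The short transcript NM_010743 had 351 and 226 normalized reads in the Ctl pair, 901 and 558 in the TSLPR WT pair and 795 in the TSLPR-negative library. The ratio of the long transcript NM_001025602 to it was 3.78 and 3.32 in the Ctl pair, 3.79 and 2.93 in the TSLPR WT pair and 3.24 in the TSLPR-negative library, so its ranges overlapped between groups. Transcripts share exons and their reads are counted in both, so at least 979 and 525 normalized reads in the Ctl pair, 2519 and 1077 in the TSLPR WT pair and 1782 in the TSLPR-negative library lay outside the short form. A further short transcript, NM_001294171, begins at the more distal start and had 298, 283, 1021, 562 and 942 reads in the 5 libraries, against 297, 282, 1022, 561 and 942 for NM_010743, which begins at the proximal start. The exon counts of these forms thus differed by at most 1 read in each library.

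Il1r1, the signalling receptor for IL-1, was far less abundant in Tregs than its decoy. Its values were 28.4 and 4.01 normalized reads in the Ctl pair, 122 and 56.7 in the TSLPR WT pair and 19.4 in the TSLPR-negative library. The TSLPR WT pair lay above all 3 others, and the TSLPR-negative library lay between the Ctl libraries. In TSLPR WT Mi2 against Ctl the log2 change was 2.79 (SE 0.694, limma adjusted p = 0.00802), and 5 reads in Ctl replicate 2 weigh on its size: without that library it was 1.52 and no longer called (adjusted p = 0.0784), nor was it without the intensity trend (0.0583). With no filter on low values, the adjusted p of Il1r2, Il1rl1 and Il1r1 against Ctl were 0.0625, 0.209 and 0.187. In TSLPR-negative against TSLPR WT the log2 change of Il1r1 was -2.04 (interval -3.86 to -0.23, limma adjusted p = 0.347). It was -2.59 without TSLPR WT replicate 2, which leaves 1 library against 1. Per kb, the mean in TSLPR WT Mi2 Tregs was 18.6 for Il1r1 and 1660 for Il1r2.

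Of the IL-18 receptor chains, Il18r1 binds the cytokine and Il18rap is its signalling partner. Il18r1 was 1822 and 1586 normalized reads in the Ctl pair, 4148 and 1462 in the TSLPR WT pair and 1873 in the TSLPR-negative library. The TSLPR WT libraries lay on both sides of the Ctl pair, and the log2 change was 0.53 (interval -0.20 to 1.27, limma adjusted p = 0.270). It was -0.22 without TSLPR WT replicate 1 and 1.29 without TSLPR WT replicate 2, when it was called (adjusted p = 0.000336). Il18rap was 443 and 285 in the Ctl pair, 1010 and 672 in the TSLPR WT pair and 620 in the TSLPR-negative library. It rose in TSLPR WT Mi2 against Ctl (log2 change 1.21, SE 0.280, limma adjusted p = 0.00517), and its groups did not overlap.

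Il1rap, the shared partner chain, was 553 and 429 normalized reads in the Ctl pair, 295 and 395 in the TSLPR WT pair and 319 in the TSLPR-negative library. Its log2 change in TSLPR WT Mi2 against Ctl was -0.51 (interval -1.08 to 0.06, limma adjusted p = 0.172), and all 3 libraries of Mi2 mice lay below the Ctl pair. Il1rl2 was low, at 32.0 and 20.9 in the Ctl pair, 25.6 and 34.8 in the TSLPR WT pair and 17.7 in the TSLPR-negative library, with no call.

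Among the brakes on these receptors in Tregs, Il18bp fell from 84.0 and 94.6 in Ctl to 33.5 and 39.8 in TSLPR WT Mi2, with 58.3 in TSLPR-negative Tregs (log2 change -1.26, SE 0.389, limma adjusted p = 0.0258). That call ended without either Ctl library or TSLPR WT replicate 1 (adjusted p = 0.0794, 0.127 and 0.0842). Sigirr, an inhibitory receptor of the family, was 1970 and 2421 in the Ctl pair, 1577 and 1332 in the TSLPR WT pair and 2632 in the TSLPR-negative library. Its log2 change in TSLPR WT Mi2 against Ctl was -0.59 and lay at the threshold (limma adjusted p = 0.0499), where 10 alternative settings put it above. Il1rn was 34.3 and 16.0 in the Ctl pair, 13.2 and 13.9 in the TSLPR WT pair and 12.7 in the TSLPR-negative library, with no call.

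The ligands were scarce in Tregs. Il18 was 18.9 and 23.3 normalized reads in the Ctl pair, 37.0 and 42.8 in the TSLPR WT pair and 27.0 in the TSLPR-negative library (log2 change in TSLPR WT Mi2 against Ctl 0.89, limma adjusted p = 0.173). Il1a had 45 reads over the 5 libraries and Il1b 15. Il33 had 3 reads over the 5 Treg libraries, while its receptor gene Il1rl1 had 10634. In epidermis the pair was the other way round, with 1855 reads for Il33 and 1 for Il1rl1.

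**Figure D2:**
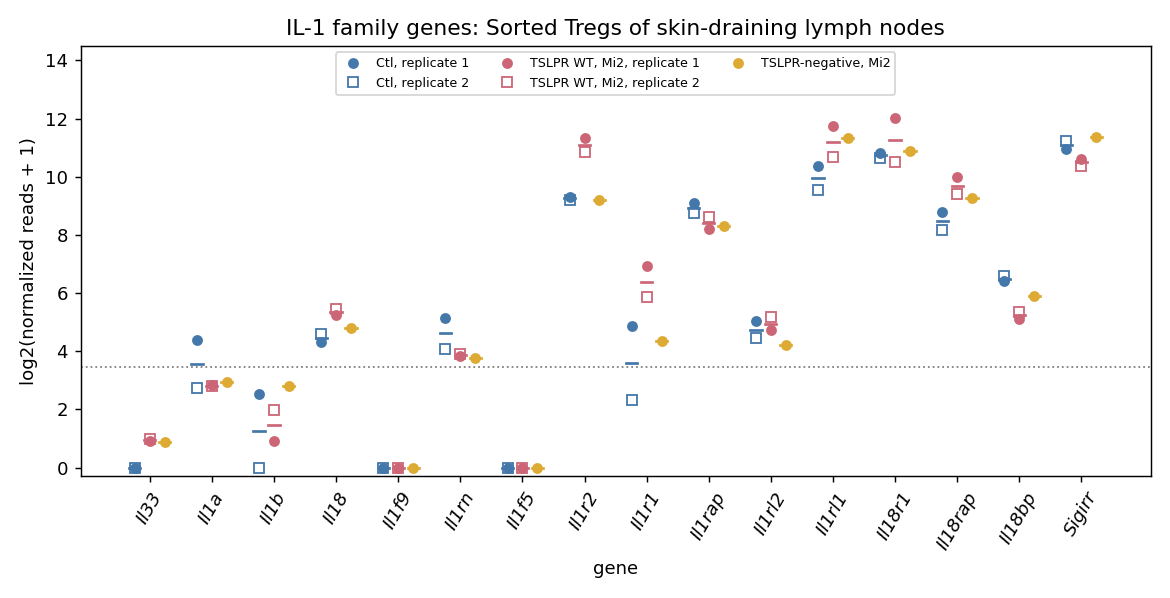
Normalized reads of the same genes in each Treg library, as log2(normalized reads + 1). Filled circles are replicate 1 (and the single TSLPR-negative library), open squares replicate 2, short bars group means, and the dotted line the mean filter of 10; for Il1r2 the TSLPR-negative library lies beside Ctl, and for Il1rl1 it lies within the TSLPR WT pair.

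**Figure D3:**
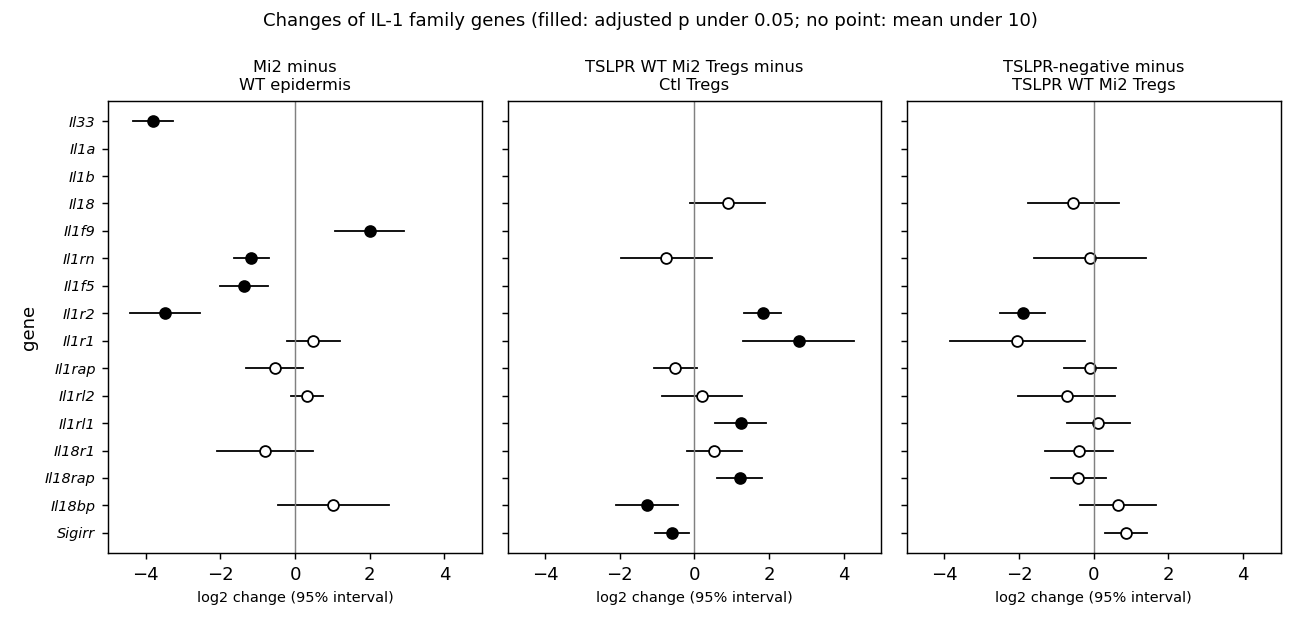
Log2 changes of IL-1 family genes with 95% intervals in 3 comparisons, where filled points have a limma adjusted p under 0.05, open points do not, and genes with a mean under 10 have no point. Il1r2 is -3.47 in Mi2 against WT epidermis, 1.83 in TSLPR WT Mi2 against Ctl Tregs and -1.90 in TSLPR-negative against TSLPR WT Tregs.

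Il1r2, Il1r1, Il1rl2, Il1rl1, Il18r1 and Il18rap lie side by side in this order on mouse chromosome 1, from base 40141613 to 40608550 of build mm9, a stretch of 466938 bases. Read along it in TSLPR WT Mi2 against Ctl Tregs, the log2 changes were 1.83, 2.79, 0.20, 1.24, 0.53 and 1.21, of which those of Il1r2, Il1r1, Il1rl1 and Il18rap were called. Il1rl2 in the middle and Il18r1 did not pass the test. In TSLPR-negative against TSLPR WT Tregs the values along the stretch were -1.90, -2.04, -0.72, 0.12, -0.39 and -0.41, with Il1r2 alone called. In Mi2 keratinocytes only 4 of the 6 passed the filter, with log2 changes of -3.47 for Il1r2, 0.49 for Il1r1, 0.32 for Il1rl2 and -0.81 for Il18r1. There the decoy was called and the adjoining Il1r1 was not, and the difference between these changes was not tested.

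**Figure D4:**
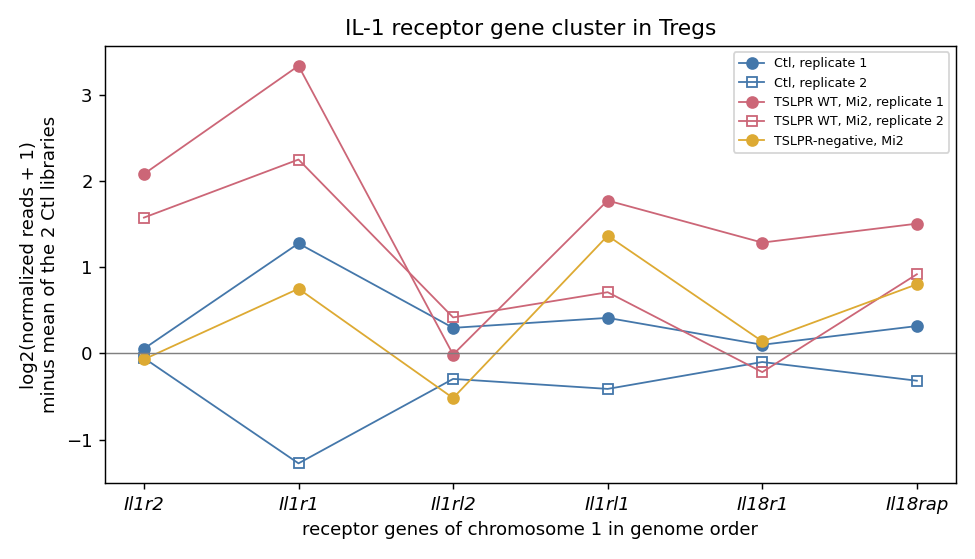
The 6 receptor genes of the chromosome 1 stretch in genome order, with each Treg library drawn as log2(normalized reads + 1) minus the mean of both Ctl libraries. Filled circles are replicate 1 and the single TSLPR-negative library, and open squares are replicate 2; the TSLPR-negative line meets Ctl at Il1r2 and lies between the TSLPR WT lines at Il1rl1.

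Replicate 1 was above replicate 2 in Ctl and in TSLPR WT Mi2 Tregs for 5 of these 6 genes, and for Il1rl2 in Ctl alone. Markers of other cells also differed between Treg groups. B lymphocyte markers summed to 3976 and 1854 normalized reads in the Ctl pair, 762 and 931 in the TSLPR WT pair and 885 in the TSLPR-negative library, with all 4 markers called lower in TSLPR WT Mi2 against Ctl. Dendritic cell and class II markers summed to 13552 and 8525 in the Ctl pair, 4275 and 5748 in the TSLPR WT pair and 3594 in the TSLPR-negative library. The endothelial list summed to 4430 and 4177 in the Ctl pair, 2147 and 2898 in the TSLPR WT pair and 4190 in the TSLPR-negative library, with 1 marker called lower in TSLPR WT Mi2 against Ctl. Nearly all of that sum was Pecam1, which leukocytes also express, while Kdr and Tek were at 0 to 1.18. CD8 T and NK cell markers summed to 2142 and 1688 in the Ctl pair, 3142 and 2877 in the TSLPR WT pair and 2717 in the TSLPR-negative library, with 1 called higher and 1 lower. Gzmb, a granzyme that activated T cells also make, led that sum in the libraries of Mi2 mice. Cd8a and Cd8b1 of that list were instead lowest in the TSLPR WT pair. Cd8a was 553 and 539 in the Ctl pair, 102 and 254 in the TSLPR WT pair and 430 in the TSLPR-negative library. In the same order, Cd8b1 was 699 and 678, then 409 and 472, then 692. Mast cells and basophils also carry ST2, and their 6 markers summed to between 62.6 and 154 normalized reads. Kit made up most of that sum, at 52.0 to 134, while Fcer1a, Mcpt4 and Tpsb2 were at 0 to 5.29 and Cpa3 at 0 to 10.97. Neutrophils carry IL-1R2, and the neutrophil, monocyte and macrophage list summed to 506 and 287 in the Ctl pair, 766 and 826 in the TSLPR WT pair and 495 in the TSLPR-negative library. Csf3r and S100a8 of that list were at 0 to 8.96. Itgam, a myeloid integrin in the same list, was highest in the TSLPR WT pair, while Lyz2 and Cd68 were not. Itgam was 218 and 79.4 in the Ctl pair, 653 and 547 in the TSLPR WT pair and 268 in the TSLPR-negative library. In the same order, Lyz2 was 200 and 123, then 45.0 and 183, then 133. Cd68 was 50.88 and 62.56, then 41.45 and 40.81, then 42.21. The part of all these markers in the receptor changes was not tested.

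The signalling genes behind the receptors were also followed in Tregs. Of 22 measured, 0 rose and 4 fell in TSLPR WT Mi2 against Ctl, where 14.7% of all features were called higher, 13.0% lower and 27.7% in either direction. The median log2 change was -0.18 against -0.01 for all features. Those 4 were Nfkbiz (log2 change -0.96), Peli1 (-0.82), a ubiquitin ligase for IRAK kinases, Irak2 (-0.90) and Ikbkb (-0.76), the kinase that releases NF-κB, with limma adjusted p between 0.00650 and 0.0108. In TSLPR-negative against TSLPR WT Tregs 0 of the 22 were called by limma and 0 by edgeR, with 1 at an unadjusted p under 0.05. Of all 12206 features, limma called 0.942% there and 1454 had an unadjusted p under 0.05, so 0 calls in a short list say little.

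Of 14 measured genes of inflammasomes and cytokine processing, 5 rose and 3 fell in TSLPR WT Mi2 against Ctl, with a median log2 change of 0.02 and the same background shares. Pycard, the adaptor, rose from 1665 and 1612 normalized reads in Ctl to 4915 and 4264, with 2475 in TSLPR-negative Tregs (log2 change 1.48, limma adjusted p = 9.2e-05). The calpain genes Capns1 and Capn2 rose by 0.71 and 0.65 on the log2 scale. Casp8 fell by 0.73 on the log2 scale, and the log2 changes of the sensors Nlrc4 and Nlrp1b, which also fell, were -1.60 and -1.19. In TSLPR-negative against TSLPR WT Tregs 0 of the 14 were called by limma and 0 by edgeR, with 6 at an unadjusted p under 0.05. The background there was 0.942% of features called by limma and 1454 of 12206 at an unadjusted p under 0.05. In TSLPR-negative against Ctl, Casp1, the IL-1β and IL-18 convertase, fell (log2 change -1.44, limma adjusted p = 0.0312).

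Of 16 IL-1 responsive keratinocyte genes, 3 passed the filter in Tregs, and Tnf fell by 1.18 on the log2 scale in TSLPR WT Mi2 against Ctl (limma adjusted p = 0.00337), while the other 2 did not pass the test.

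Genes known from ST2 Tregs were followed as a list of 16, of which 14 were measured in Tregs. In TSLPR WT Mi2 against Ctl, 10 rose and 0 fell, where 14.7% of all features were called higher. The list was chosen with earlier results of these data known, so its counts are no independent test. The 4 not called were Maf (log2 change 0.76), Il10 (0.61), Areg (0.45) and Gata3 (0.09). Pparg passed the filter only through the libraries of Mi2 mice. Klrg1, a receptor of terminally differentiated effector lymphocytes, was 767 and 574 normalized reads in the Ctl pair, 4314 and 3738 in the TSLPR WT pair and 3023 in the TSLPR-negative library. Pparg, the lipid-sensing nuclear receptor of tissue Tregs, was 5.92 and 11.2 in the Ctl pair, 85.6 and 184 in the TSLPR WT pair and 97.1 in the TSLPR-negative library. Tigit, an inhibitory receptor, rose by 2.28 and Prdm1, the transcription factor Blimp-1, by 2.19 on the log2 scale. In TSLPR-negative against Ctl, 4 of the 14 rose, Klrg1 (2.19), Pparg (3.41), Tigit (1.31) and Prdm1 (1.14), and 0 fell. Of all features, 2.63% were called higher there and 0.516% lower. The 10 not called included Il10 (0.97), Gata3 (-0.02), Maf (-0.07) and Areg (-1.36). In TSLPR-negative against TSLPR WT, 0 were called by limma and 0 by edgeR, with 6 at an unadjusted p under 0.05 and a median log2 change of -0.63. Over all 12206 features, limma called 0.942%, 1454 had an unadjusted p under 0.05 and the median log2 change was 0.03.

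By profile over the 5 Treg libraries, the features most like Il1rl1 among 10593 with a mean of at least 50 were Tmtc2, Yes1 and Cd80. Their root mean square distances from the centred log2 profile of Il1rl1 were 0.0405, 0.0975 and 0.0997. Cd80, a costimulatory ligand, was at 322 and 188 normalized reads in the Ctl pair, 859 and 481 in the TSLPR WT pair and 641 in the TSLPR-negative library.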

How the data were processed

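RNA sequencing of 9 sorted samples was analysed from 2 deposited tables. The submitters' processing notes list bcl2fastq 1.8.3, STAR, DESeq2 and the builds mm9 and mm10 without roles. The deposited signal of both tables is a read count normalized by the authors, who scaled whole reads with 1 factor per library. Every value above 0 was a whole multiple of 1 read within 0.05 reads, that is 100% of values, so reads were recovered. Per the file headers, the Treg table was made with HOMER on exons of RefSeq transcripts in mm9, with a command that names 7 libraries, of which 5 are in the table, and no strand setting. Transcripts of 1 gene share reads there, and overlapping or antisense genes cannot be told apart. For the epidermal table, the counter and strand use were not given in the sources used here. The kits listed in the labels, NEXTflex or stranded TruSeq, are not tied to samples. The tables were normalized separately and tested separately.

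Because the tables held normalized values, log2(value + 1) was fitted with limma 3.58.1 (R 4.3.3, intensity trend) after features with a mean under 10 were left out. Adjustment was by Benjamini-Hochberg over all tested features, two-sided, with calls at an adjusted p under 0.05. Keratinocytes were fitted over 4 libraries, and 1 fit of 5 Treg libraries gave 3 comparisons. edgeR 4.0.16 on recovered reads, pseudocounts of 0.5 and 5, other scalings, other transcripts, no filter, no trend, a replicate block and each library left out were alternatives. The fit was tested on simulated data. Genes named are the 10 members, other family genes with a mean of at least 10, up to 4 called genes with the smallest p of each list, and further genes where they complete a count. A few list genes it covers are left out of the text. The members and lists were chosen with earlier results of these data known. Reads carried no molecular identifiers.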

Additional observations from a re-analysis of the deposited data

Results flagged for a closer look

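By limma, the change of Il1r2 from Ctl differed between TSLPR WT Tregs of Mi2 mice and the single TSLPR-negative library. The difference, which is the direct comparison of those groups, was -1.90 on the log2 scale by limma (SE 0.283, adjusted p = 0.00722), and that library lay below both TSLPR WT libraries. The call ended without the intensity trend (adjusted p = 0.199) and with no filter on low values (0.452).

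Il1r2 also moved in opposite directions in the 2 cell types, with a log2 change of -3.47 in Mi2 against WT epidermis and 1.83 in TSLPR WT Mi2 against Ctl Tregs, and every library followed its group's direction. This difference was not tested, since the tables were normalized separately and the Mi2 Treg and epidermal samples are different cells.

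Il18bp had the reverse signs, with 1.03 in epidermis, which did not pass the test, and -1.26 in Tregs, which did. In epidermis it passed the filter only through the Mi2 pair (mean 17.5, against 8.29 in WT). It could therefore be called there only as a rise, and its sign in epidermis is no finding. The difference between the cell types was not tested either.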

How the results depend on the processing

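Il33 and Il1r2 stayed called and lower in Mi2 epidermis under every alternative run. Of 128 values of family genes in that comparison, 122 kept their direction and side of the threshold, and 0 changed direction. With 1 library left out, all calls in epidermis ranged from 1113 to 5815 of the genes tested and calls of members from 2 to 4. For TSLPR WT Mi2 against Ctl Tregs, 125 of 154 values kept both, all calls ranged from 2504 to 3361 and members called from 1 to 4. For TSLPR-negative against TSLPR WT Tregs, 125 of 132 kept both, with ranges of 159 to 453 calls and 1 to 3 members. For TSLPR-negative against Ctl Tregs, 128 of 132 kept both, with ranges of 372 to 687 calls and 0 to 1 member.

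With no filter on low values, limma called 0 features and 0 members in each of the 3 Treg comparisons, with 5043, 1741 and 1942 features at an unadjusted p under 0.05, and 2, 1 and 1 members. Without the trend, 3 features and 0 members were called in TSLPR-negative against TSLPR WT, and 1 feature in TSLPR-negative against Ctl. edgeR called 120 and 407 there. The cause was not tested.

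Directions turned when 1 library was left out for Il18r1 (-0.22 to 1.29) and Il1rl2 (-0.094 to 0.50) in TSLPR WT Mi2 against Ctl. They also turned for Il1rl1 (-0.41 to 0.66), Il1rap (-0.31 to 0.11) and Il18r1 (-1.15 to 0.36) in TSLPR-negative against TSLPR WT, and for Il1r1 (-0.53 to 2.03) in TSLPR-negative against Ctl. None of these was a call with all libraries.

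Replicate numbers are shared between groups, but the labels do not say that they mark a shared animal or batch. Deviations of same-numbered libraries correlated at 0.123 in epidermis and 0.0917 in Tregs. With a replicate block, 5170 genes and 3 members were called in epidermis, and 4361 features and 4 members in TSLPR WT Mi2 against Ctl Tregs, where Il18r1 became a call (log2 change 0.53, adjusted p = 0.0482). No paired analysis was possible for the TSLPR-negative group because it has 1 library. In epidermis Il1a, Il1b and Il18 had 14, 18 and 13 reads in all, a depth at which the filter on low values left them out, and with no filter they were not called.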
